A study of Gallus gallus with 9 samples.

Results

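The genes described here were expressed most strongly in the chick dorsal mesentery at embryonic day 12 (E12), the middle of the 3 sampled stages. They were chosen by their measured levels, and 69 of the 14172 genes that passed a filter on low counts met the rule, or 0.487%. The filter asked for at least 1 CPM (counts per library, scaled to a common total) in 3 or more of the 9 libraries. A member then needed a mean E12 level of at least 10 CPM that was also at least 2 times the mean at E8 and at least 2 times the mean at E16, with libraries scaled by TMM factors (the trimmed mean of M-values, which sets the typical gene equal between libraries). The full count table holds 24356 genes.

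The 9 libraries came from wild type White Leghorn embryos, with 3 libraries at each of E8, E12 and E16. Per the series' design text, small intestinal looping starts at E8, is in progress at E12 and has ended at E16. Each library was made from poly(A) RNA of mesenteries pooled from 3 embryos, after the gut tube and the superior mesenteric artery had been dissected away. Libraries of a stage are therefore separate pools, and single embryos cannot be compared. In such bulk tissue, more cells of a type and more RNA per cell cannot be told apart.

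The dorsal mesentery is a thin sheet of mesenchyme between mesothelial surfaces that carries vessels, lymphatics and nerves to the intestine. It anchors the gut tube along its length, and because the tube grows faster than the sheet that holds it, the tube is compressed and buckles into loops. The study sampled the 3 stages to find genes regulated as looping begins, proceeds and ends. The file identifies genes by Ensembl IDs only. None of these IDs was found in a RefSeq table of 25635 chicken genes (assembly GRCg7b), so the members have no symbols, roles, positions or sequences here, and neither the tissue label nor the presence of other cell types was checked against marker genes.

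The 3 E12 libraries differed among themselves in the share of reads that fell outside annotated features. Reads outside annotated features made up 16.6% of all reads in E12 replicate 1, 11.0% in replicate 2 and 13.5% in replicate 3, against 18.3% to 20.4% in the 6 other libraries. The part of this library property in the choice of the members was not tested. With it as a covariate, the comparison of E16 with E8 described further on called 22 members, 12 higher and 10 lower, where 19 were called without it. Over all genes the share called was 56.8% with the covariate and 51.2% without it. With E12 replicate 1 left out, 176 genes met the rule in place of 69. Total counts in genes were 23.0 to 30.6 M (mega) per library.

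Summed over the 69 members, the E8 libraries held 5585, 4890 and 5486 CPM in replicates 1, 2 and 3. The E12 libraries held 11200, 15710 and 13820 CPM, and the E16 libraries 5422, 6029 and 5645 CPM. The mean over the 3 libraries (± SD, n = 3) was 13580 ± 2260 CPM for E12, compared with 5320 ± 376 CPM for E8 and 5699 ± 307 CPM for E16. Every E12 library thus lay above all 6 others, a direction set by the rule, and the E12 libraries were spread more widely than those of either other stage. The most abundant member supplied 7.91% to 16.3% of the sum. Without it, the E12 sum was 11650 ± 1830 CPM (SD, n = 3), compared with 4594 ± 291 CPM for E8 and 5078 ± 416 CPM for E16.

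**Figure D1:**
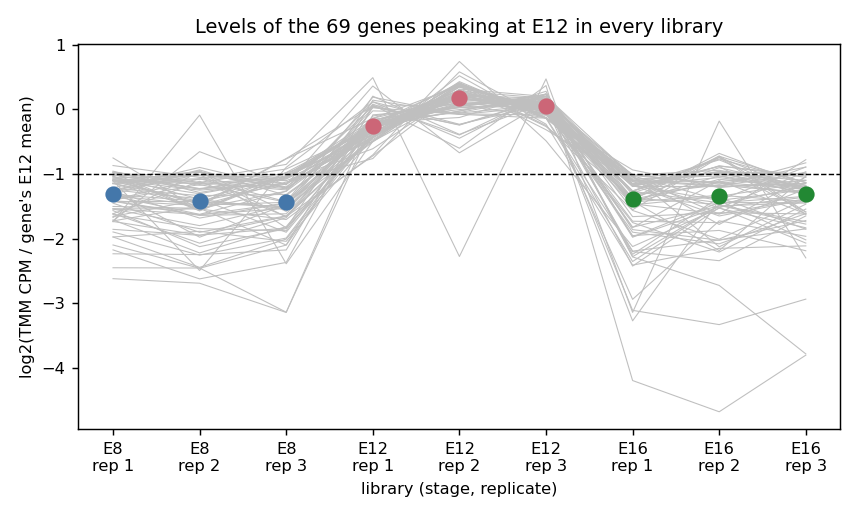
Level of each of the 69 members in each of the 9 libraries, as the log2 ratio of its TMM-scaled CPM to its own E12 mean; grey lines are genes, coloured points are library medians and the dashed line marks a level of 2-fold under the E12 mean. The medians of the 6 E8 and E16 libraries lie under the dashed line, and among the E12 libraries the median of replicate 1 is the lowest.

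The members covered a wide range of abundance. Their E12 means ran from 10.6 to 1919 CPM, with a median of 86.0 CPM and quartiles of 20.4 and 199 CPM. The median E12 level of the 9656 genes that met the 10 CPM minimum was 43.8 CPM. Of the members, 17 were under 20 CPM, 29 reached 100 CPM, 7 reached 500 CPM and 2 reached 1000 CPM. Median levels of the same 69 genes were 35.3 CPM at E8 and 37.1 CPM at E16. The members were transcripts already present at E8 and still present at E16, since the lowest stage mean of any member was 1.78 CPM at E8 and 1.52 CPM at E16. Counts per member and library ran from 17 to 67200, with a median of 1041. A count of 17 has an exact 95% Poisson interval of 9.90 to 27.2, which covers counting error only.

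In most members the rise, the fall or both lay close to the limit of the rule. The ratio of E12 to E8 had a median of 2.495 and ran from 2.01 to 6.96, and the ratio of E12 to E16 had a median of 2.40 and ran from 2.02 to 18.1. These ratios chose the genes and are given as a description. The smaller of both ratios was under 2.5 in 51 members, and reached 3 in 8 and 4 in 4. The 3 members just inside the limit had smaller ratios of 2.005, 2.005 and 2.019, and the 3 genes just outside it had 1.997, 1.991 and 1.987. With a limit of 1.5 in place of 2, 636 genes met the rule, so the members are the upper end of a continuous distribution. By the same rule 307 genes peaked at E8 and 440 at E16, and by its mirror image 429 genes, at 10 CPM or more at both outer stages, dipped at E12.

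The 4 sharpest members, with a smaller ratio of at least 4, stood clear of the other stages in every library. They were picked by this ratio, so a clear separation largely follows from the choice. Their levels lay between 11.7 and 212 CPM in the E12 libraries, between 1.40 and 45.6 CPM in the E8 libraries and between 1.19 and 62.3 CPM in the E16 libraries. For these 4 genes the E12 to E8 ratio was 4.11 to 6.96 and the E12 to E16 ratio 4.09 to 18.1. In each of the 4, and in 8 members in all, the lowest E12 library was at least 2 times the highest of the 6 other libraries. Over all 14172 genes, 8 with an E12 mean of at least 10 CPM did so. Such a gene is a member by construction, and nothing is read from this count. In 66 of the 69 members all 3 E12 libraries lay above all 6 others. Over all 14172 genes this held for 1843, or 13%, but the rule used this contrast and nothing is read from the count.

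The 3 members with overlapping stages each had a library that stood apart from the others of its stage. One stood at 17.9, 2.62 and 17.6 CPM in E12 replicates 1, 2 and 3, and at 11.2 CPM in E16 replicate 2, so its second E12 library was below all E8 libraries, which held 5.74 to 7.05 CPM. Another stood at 13.9, 6.80 and 11.8 CPM at E12, where replicate 2 was just under the 6.89 CPM of E8 replicate 2. The last stood at 17.1, 34.6 and 20.6 CPM at E12, and its E8 replicate 2 held 22.7 CPM against 7.23 and 4.61 CPM in the other E8 libraries.

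**Figure D2:**
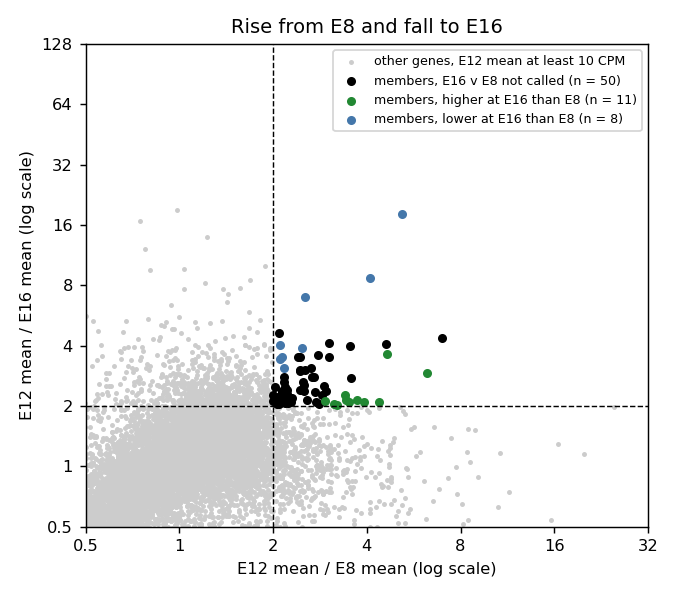
Ratio of the E12 mean to the E8 mean (x) and to the E16 mean (y) on log scales, for the 69 members (coloured by the test of E16 against E8) and for other genes with an E12 mean of at least 10 CPM (grey; genes beyond the axes are not drawn). Dashed lines mark the limit of 2, and most members lie close to the corner where they cross.

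The rise and the fall were set side by side as a description, since the rule used both. The rise from E8 was the larger ratio in 33 members and the fall to E16 in 36. Expressed in CPM, the fall from E12 to E16 undid a median of 101.4% of the rise from E8 to E12, with quartiles of 90.8% and 113% and a range of 67.8% to 150%. The rule bounds this percentage on both sides, so a value near a full return is in part built in.

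Whether the members came back to the level they had left is a contrast that the rule did not name, and it was tested as E16 against E8 with edgeR's quasi-likelihood test over all 14172 genes. The rule leaves out genes whose E12 mean is under 2 times either outer mean. Where both ratios are near the limit of 2, the outer means lie close together by construction. Where a single ratio is near it, the other has no upper limit. The rule favours neither direction, and nothing is read from the members' share of calls, or the size of their differences, being below that of all genes. Of the 69 members, 11 were higher at E16, 8 were lower and 50 were not called at a Benjamini-Hochberg adjusted p under 0.05. The 19 called members are 27.5% of the group, where 7260 of all genes, or 51.2%, were called. Among the genes with an E12 mean of at least 10 CPM the share was 52.1%. In the separate directions, 15.9% of the members were higher, against 23.6% of all genes, and 11.6% were lower, against 27.7%. The median log2 fold change was -0.03 over the members and -0.06 over all genes. Its median size without regard to sign was 0.28 in the members, 0.49 in all genes and 0.41 in genes with an E12 mean of at least 10 CPM. The median standard error was 0.19 in the members, 0.18 in all genes and 0.15 in genes with an E12 mean of at least 10 CPM. Its part in the share of calls was not tested.

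Members that were not called had intervals that were mostly narrow. In 43 of these 50 the 95% interval of the E16 to E8 difference lay within 1 log2 unit on either side of 0, and in the other 7 it reached further. Called or not, 68.1% of the members had an interval within these limits, against 55.3% of all genes. Of the called members, 5 differed between E8 and E16 by 1 log2 unit or more. The same count was not made over all genes, so nothing is read from it. The upper quartile of the size of the difference was 0.59 in the members and 0.94 in all genes. The rule bears on this size through the genes it leaves out, as set out above, and nothing is read from either comparison. The split by direction depended on how libraries were scaled. With total counts in place of TMM factors, the median of all genes moved from -0.06 to -0.24, and 6 members were called higher and 16 lower. Of all genes, 2579 were then called higher and 5170 lower, against 3339 and 3921 with TMM factors. Without E12 replicate 1, 14 members were called higher and 6 lower, and of all genes 4175 higher and 3886 lower. Without E8 replicate 1 or 3, or without E16 replicate 1 or 3, 5 members were called lower in place of 8. In these fits 2765 to 3260 of all genes were called lower, in place of 3921.

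**Figure D3:**
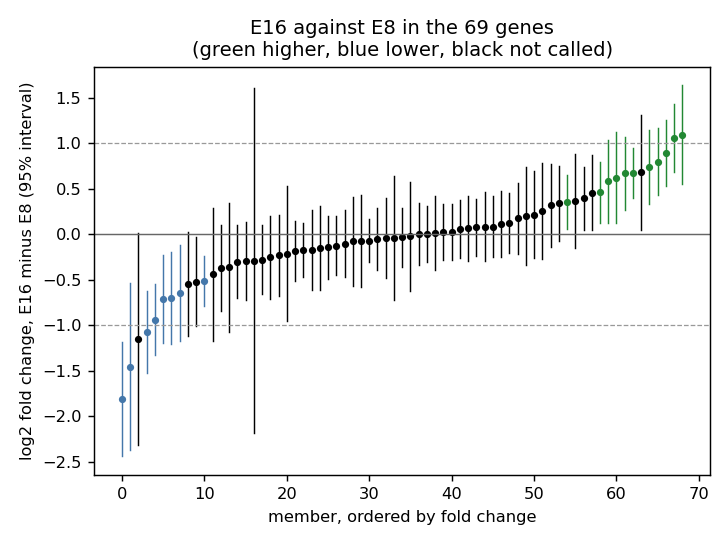
Log2 fold change of E16 against E8 with its 95% interval for each of the 69 members, ordered by size; green members were called higher at E16 (11), blue ones lower (8) and black ones were not called (50). Dashed lines mark a difference of 1 log2 unit, and most intervals lie between them and cross 0.

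The 11 members that ended higher than they began had E12 to E8 ratios of 2.94 to 6.26 and E12 to E16 ratios of 2.02 to 3.64. They gave back 67.8% to 92.4% of their rise, and their log2 fold changes from E8 to E16 were 0.35 to 1.10. With E16 above E8, a return of less than the whole rise and a larger ratio to E8 follow by construction. The 2 most abundant of them are given in full. ENSGALG00000042077 stood at 252, 268 and 241 CPM in the E8 libraries, at 733, 1258 and 979 CPM in the E12 libraries and at 456, 456 and 503 CPM in the E16 libraries. The 3 stages did not overlap, and E16 lay between the others. Both steps through E12 were used in its choice, with log2 fold changes of 1.97 (SE 0.17) for E12 against E8 and -1.07 (SE 0.17) for E16 against E12. For E16 against E8 the value was 0.89 (SE 0.17), and edgeR gave an adjusted p of 0.000717.

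ENSGALG00000001407 showed the same order with less spread at E12. It stood at 184, 158 and 155 CPM at E8, at 510, 567 and 627 CPM at E12 and at 254, 292 and 248 CPM at E16. Its stages did not overlap either, and the log2 fold change from E8 to E16 was 0.68 (SE 0.13, edgeR adjusted p of 0.000698). Both genes were called in this direction under every alternative run.

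The 8 members that ended lower had E12 to E8 ratios of 2.11 to 5.19 and E12 to E16 ratios of 3.08 to 18.1. Here the ratio to E16 is the larger by construction. Their log2 fold changes from E8 to E16 ran from -1.81 to -0.51, and their E12 means, with a median of 24.2 CPM, were mostly below those of the 11 genes that ended higher, with a median of 172 CPM. That difference in level was not tested. ENSGALG00000036838, the most abundant, stood at 129, 74.1 and 106 CPM at E8, at 182, 214 and 256 CPM at E12 and at 45.9, 84.6 and 60.1 CPM at E16. Its E8 and E16 values overlapped, since E8 replicate 2 was under E16 replicate 2. The log2 fold change from E8 to E16 was -0.70 (SE 0.23, edgeR adjusted p of 0.024), and it was not called in 7 of the 17 alternatives, with values between -0.65 and -0.44. These included the fits without E8 replicate 1 or 3, without E12 replicate 1 and without E16 replicate 1 or 3.

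ENSGALG00000012024, the second most abundant of the 8, stood at 75.3, 82.8 and 72.5 CPM at E8, at 138, 172 and 190 CPM at E12 and at 52.7, 54.9 and 54.3 CPM at E16. No stages overlapped. The log2 fold change from E8 to E16 was -0.51 (SE 0.13, edgeR adjusted p of 0.00513) and was called under every alternative run.

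The rule averaged the 3 E12 libraries, so their order within a member was not fixed by it. A high level in any of them raises the mean that chose the member, so the choice can still shape the order. The members' order is set beside that of other genes as a description, and nothing is read from the difference. Replicate 1 was the lowest of the 3 in 53 of the 69 members, replicate 2 in 11 and replicate 3 in 5. Replicate 2 was the highest in 42 members, replicate 3 in 21 and replicate 1 in 6. Among the genes with an E12 mean of at least 10 CPM, replicate 1 was the lowest in 46.4%, replicate 2 in 24.6% and replicate 3 in 29.0%. In the same genes replicate 2 was the highest in 39.1%, replicate 3 in 21.9% and replicate 1 in 38.9%. Relative to the E12 mean of each gene, the median member stood at 83.6% in replicate 1, 113% in replicate 2 and 104% in replicate 3. The ratio of replicate 1 to the mean of replicates 2 and 3 had a median of 0.77 in the members and 0.98 in the genes with an E12 mean of at least 10 CPM. From lowest to highest, the order was replicate 1, 3 and 2 in 39 members and in 27.3% of all genes. The share of reads outside annotated features has the reverse order. So do the TMM factors, by which CPM are divided, at 1.01, 0.86 and 0.919 in replicates 1, 2 and 3. Without these factors the members together held 1.13%, 1.35% and 1.27% of the counts in genes. The part of either library property in the order was not tested.

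**Figure D4:**
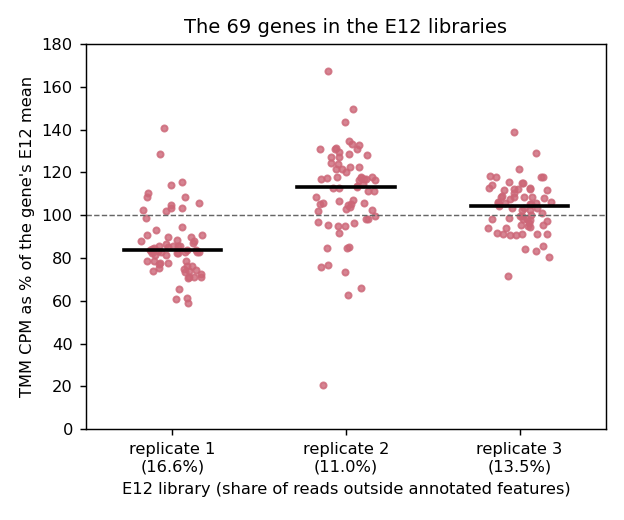
TMM-scaled CPM of each of the 69 members in each E12 library, as a percentage of the gene's own E12 mean; black bars are medians (83.6%, 113% and 104%) and the percentages under the axis are each library's share of reads outside annotated features. Most members lie under 100% in replicate 1.

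Which E12 library was highest differed with how sharply a member peaked, in a division made after the values were seen and not tested. The smaller ratio uses the mean of the same 3 E12 libraries. The choice of members can therefore bear on this difference, and nothing is read from it. Of the 51 members with a smaller ratio under 2.5, 34 were highest in replicate 2, 12 in replicate 3 and 5 in replicate 1. Of the 18 sharper ones, 8 were highest in replicate 2, 9 in replicate 3 and 1 in replicate 1. The lowest library was replicate 1 in 42 of the 51, replicate 2 in 5 and replicate 3 in 4. In the 18 sharper ones it was replicate 1 in 11, replicate 2 in 6 and replicate 3 in 1. The ratio of replicate 1 to the mean of replicates 2 and 3 differed little, with a median of 0.767 in the 51 and 0.795 in the 18. The sharper members were also less abundant, with a median E12 mean of 22.3 CPM against 95.4 CPM. Spread among replicates was larger in members than in all genes of at least 10 CPM at E12, which include the members. The members were chosen on their stage means, and spread was not compared at equal levels. The coefficient of variation (the SD as a percentage of the mean) had a median of 19.1% at E12 in the members against 14.7%, of 12.5% against 7.50% at E8, and of 14.4% against 10.2% at E16.

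Each E12 library was also read singly, for a level of at least 10 CPM and at least 2 times both outer stage means. By this mark 17 members passed in all 3 libraries, 46 in 2 of them and 6 in 1. Replicate 1 alone met that mark in 27 members, and replicates 2 and 3 in 61 each. Over all 14172 genes the same mark was met by 0.346% in replicate 1, 1.82% in replicate 2 and 0.762% in replicate 3. The mean of these same 3 libraries chose the members, so each member passes in at least 1 of them by construction. Nothing is read from the members' counts against the shares of all genes.

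The rule was then applied without each E12 library in turn, and the genes it chose were read in the library left out, which had played no part in choosing them. The E8 and E16 libraries were shared between the choice and the reading. A gene was counted as reaching a ratio of 2 only if it also held at least 10 CPM in the library left out. Without replicate 1, 176 genes were chosen, 66 of them among the 69. In replicate 1 their smaller ratio had a median of 1.55, 24 of the 176 (13.6%) reached 2, and 169 lay above all 6 E8 and E16 libraries, a position that 17.4% of all genes held in that library. Without replicate 2, 47 genes were chosen, of which 33 (70.2%) reached a ratio of 2 in replicate 2 and 44 lay above all 6 libraries, against 27.6% of all genes. Without replicate 3, 75 genes were chosen, of which 51 (68.0%) reached 2 in replicate 3 and 70 lay above all 6 libraries, against 27.3% of all genes. Being above the E8 and E16 libraries is in part set by their use in the choice, so the shares of all genes are no measure of what a list chosen in this way would show without a peak. The ratios were mostly under the limit of 2 in replicate 1 and mostly over it in replicates 2 and 3.

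**Figure D5:**
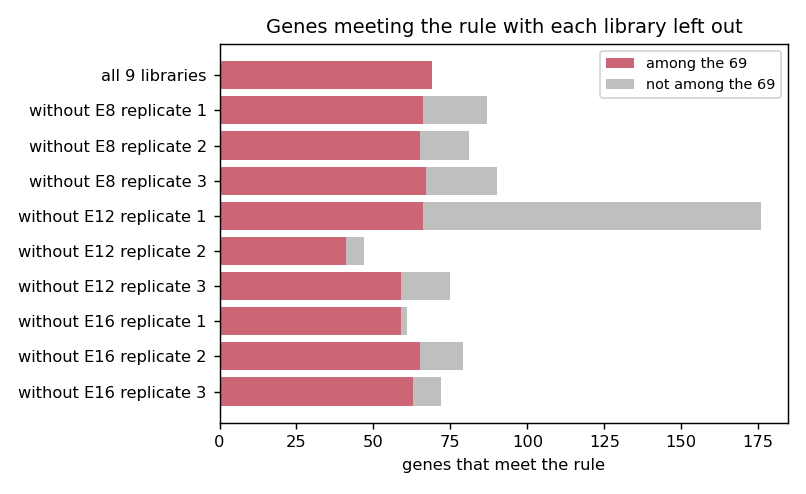
Number of genes that meet the rule with all 9 libraries (69) and after removal of any single library; the red part of a bar counts genes among the 69 and the grey part genes that are not. The longest bar, 176, is that without E12 replicate 1, and the shortest, 47, that without E12 replicate 2.

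Among the removals of a library, the number of genes that met the rule moved most without E12 replicate 1, and the most members were lost without E12 replicate 2. Leaving out an E8 or E16 library gave 61 to 90 genes, with 59 to 67 of the 69 among them. Leaving out E12 replicate 2 kept 41 of the 69, and leaving out E12 replicate 3 kept 59. With total counts in place of TMM factors, 33 genes met the rule, all of them among the 69. That scaling moved the median log2 ratio of E12 to E8 over all genes from -0.01 to -0.25, and that of E12 to E16 from 0.01 to -0.07, so a peak is a peak relative to the typical gene.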

How the data were processed

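The deposited table holds raw counts, not normalized by the authors, for each Ensembl ID in all 9 libraries. The submitters' processing notes name, with no role or order, FastQC 0.11.9, cutadapt 3.1, Trim Galore, HISAT2 2.2.1, HTSeq 0.13.5, DESeq2 and the build GRCg6a. The annotation release and strand setting are not given in the sources used here, so a count is uncertain where genes overlap, lie antisense or are near copies. Groups and replicate numbers came from sample titles. The 5 rows that name no gene (means of 17.7% of reads outside features, 7.47% not aligned, 5.09% of low alignment quality, 2.29% ambiguous and 2.17% aligned to several places) were kept out of library sizes and tests.

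Members were found with TMM factors from edgeR 4.0.16 in R 4.3.3. The members and all choices of test were made with earlier results of these data known. E16 was compared with E8 in a quasi-likelihood fit of the 3 stage means to all 9 libraries, with robust estimation and Benjamini-Hochberg adjustment over 14172 genes; standard errors were derived from the F statistic. The fit was checked on simulated data in which all genes had the same spread setting and few changed between stages. Both differ from the data described here. Genes were named by a rule: with no symbols, the 2 members of highest E12 level called in each direction of E16 against E8. Without symbols, the planned lists of pathway and cell type genes and the promoter motifs were not used. Alternatives were DESeq2 1.42.0, other size factors and filters, other limits, fewer libraries, a covariate (each library's percentage of reads outside features) and the replicate number as a block.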

Additional observations from a re-analysis of the deposited data

Results flagged for a closer look

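The table's rows for reads in no gene are not empty, and apart from reads outside annotated features the comparisons above do not use them. No test was run on them. As means of the 9 libraries, unaligned reads made up 7.47% of the total, reads of low alignment quality 5.09%, reads over more than 1 gene 2.29% and reads with several alignments 2.17%.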

How the results depend on the processing

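The number of members stayed within 1.5 times 69 under 14 of the 19 alternatives run. Those 14 kept 41 to 69 of the 69 genes, so a similar number did not always mean the same genes. The median of the 3 libraries of a stage, in place of the mean, gave 94 genes, 58 of them among the 69. The number was 33 with total counts only, 636 with a ratio limit of 1.5 and 8 with a limit of 3. It was also 8 with the lowest E12 library at least 2 times the highest other, an alternative chosen after seeing the data. Without each library in turn it ran from 47 (without E12 replicate 2) to 176 (without E12 replicate 1). The cause was not tested, apart from the limits themselves, which admit more or fewer genes by construction. In E16 against E8, 13 to 23 members were called without each library in turn, against 19. The other 8 alternatives gave 17 to 22, or 24.6% to 31.9% of the members, against 35.1% to 56.9% of all genes. The lowest share of all genes, 35.1%, was with no filter on low counts, where 29.0% of the members were called. Nothing is read from these differences. Members lower at E16 numbered 5 without E8 replicate 1, E8 replicate 3, E16 replicate 1 or E16 replicate 3, against 8. In the same fits 2765 to 3260 of all genes were lower, against 3921. ENSGALG00000036838 was not called with no filter on low counts (-0.63, edgeR adjusted p of 0.064), with only the E8 and E16 libraries (-0.63, 0.075) or without E8 replicate 1 or 3, E12 replicate 1 or E16 replicate 1 or 3 (-0.65 to -0.44, 0.054 to 0.16). All genes called numbered 5840 to 8061 without 1 library.

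With the replicate number as a block, 17 members and 7150 of all genes were called. Same-numbered E8 and E16 libraries did not deviate together (correlations across genes of -0.02, 0.01 and -0.04). The E12 libraries were not compared in this way. Whether same-numbered libraries share more than a number is not settled by these values. How the width of a member's interval varied with its counts was not tested, and 7 uncalled members had intervals beyond 1 log2 unit.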
